A study of Saccharomyces cerevisiae with 8 samples.

Results

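The 6 genes described here, NRD1, HRP1, YRA1, DBP2, NAB2 and PAB1, encode yeast RNA-binding proteins whose amount is known, from work in yeast or on a homologue, to limit the expression of their own gene. They were taken by symbol from the transcript annotation deposited with the study, where each has 1 transcript with an SK1 and an S96 count, so that there were 6 members among 7263 transcripts with rows for both alleles. All 6 passed the filter for low counts, which left 6705 transcripts for the tests. The question put to them was whether the allelic ratio of a gene that restrains itself changes from hybrids to pools of spores. In a diploid hybrid both alleles share 1 supply of the protein. A haploid spore has a single allele, and any self-restraint acts on that allele alone.

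Both groups came from a cross between SK1, a strain isolated from nature, and S96, a laboratory strain whose genome is that of S288c, and all cultures were grown in YPD, a rich glucose medium. The hybrids are diploid S96 x SK1 cells (hybrid A and hybrid B), and the pools are haploid spores of that cross, germinated, selected for a single mating type and grown together (spore pool A and spore pool B). A pool is thus a mixture of many recombinant genotypes, and each allele of a gene is read against a mixed background. RNA was sequenced from all 4 cultures. Genomic DNA reads of the same hybrids and pools, made for an earlier study, gave the frequency of each allele. Whether RNA and DNA were taken from the same culture is not stated.

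In the RNA libraries 45279970 to 52572032 read pairs that matched only 1 strain were assigned to annotated transcripts. Of 6 genes specific to mating type a, all 6 were higher in both pools than in both hybrids (summed 531 and 748 normalised read pairs in the hybrids, 62570 and 43264 in the pools), as were all 5 annotated of 8 haploid-specific genes (3456 and 3137 against 20385 and 21140), and none of 4 genes specific to mating type alpha was (1370 and 1480 against 1565 and 1251). The tests below passed 5 of the 5 and 5 of the 6 in total expression, where 1.13% of all transcripts passed. Each library was run in sequencing lanes 6, 7 and 8. Lanes 6 and 7 agreed within sampling noise. Among transcripts with at least 50 pairs in every count compared, 4.81% to 5.53% differed between them in allelic ratio (unadjusted Pearson chi-square p under 0.05). Lane 8 differed from them at 71.3% to 78.5% of transcripts by the same test. The median absolute difference was 0.37 to 0.49 on the log2 scale. Lane 8 holds 62.4% to 69.2% of the pairs, so values without it are given for each gene, and the cause of the difference was not tested.

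Negative autoregulation of RNA-binding proteins works after transcription has begun, through the transcript that the protein itself can bind. Nrd1, which with Nab3 and the helicase Sen1 ends the transcription of short noncoding RNAs, stops transcription early on its own gene, and Hrp1, a subunit of the cleavage factor that helps to place mRNA 3' ends, is attenuated in a similar way near its 5' end. Yra1, the adaptor that hands mRNA to the export receptor, hinders the splicing of its own unusual intron, and its unspliced RNA is exported and decayed with the help of Edc3. Dbp2, a DEAD-box RNA helicase, keeps its level in check through an intron within its coding sequence, and its RNA is a substrate of nonsense-mediated decay. Nab2, a nuclear protein that binds poly(A) tails, controls its mRNA through a run of A downstream of the coding sequence together with the nuclear exosome. For Pab1, the main cytoplasmic poly(A)-binding protein, the loop is best known from its human homologue, which represses the translation of its own mRNA through an A-rich leader.

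Sequence elements from the introns, leaders and regions after the coding sequence named above are shown first, as they read in the S288c genome (build R64, RefSeq), because the count table sees none of them separately. For the genes with an intron the splice signals are shown, and which part of the intron carries the regulation was not tested. YRA1 (YDR381W, chrIV:1236445-1238205, plus strand) has an intron of 766 bases at chrIV:1236843-1237608, the third longest of 261 genes with a single intron in the coding sequence, whose median is 148 bases. The intron of DBP2 (YNL112W, chrXIV:413603-416419, plus strand) spans 1002 bases at chrXIV:414912-415913 and is the longest of them. In the lines below capitals mark the conserved intron start GTATGT, the branch point sequence TACTAAC or its nearest match, and the last bases of the intron.
YRA1 intron start, chrIV:1236837-1236856: gtaagaGTATGTtaatacgt
YRA1 branch point, chrIV:1237575-1237597: agatatatGACTAACtttttttt
YRA1 intron end, chrIV:1237595-1237614: tttttttattaTAGgaattt
DBP2 intron start, chrXIV:414906-414925: gtatcgGTATGTtaaaattt
DBP2 branch point, chrXIV:415857-415879: aaccaaatTACTAACagtatgct
DBP2 intron end, chrXIV:415900-415919: ctttattttttCAGatgtca

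Both introns start with GTATGT, as do 72.0% of the 261 introns. TACTAAC was present in DBP2 and in the last 200 bases of 82.8% of the introns, while the best match in YRA1 differed from it at 1 base, the first. None of the S96 and SK1 SNPs with DNA counts fell within the 3 YRA1 elements shown. In DBP2, 7 of its 12 SNPs lie in the intron, between 415655 and 415878, and the last of them is within the 23 bases shown around the branch point, downstream of TACTAAC. It is the capital in this line.
DBP2 intron SNP, chrXIV:415866-415890: actaacagtatgCtttgtaaacgtt

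For the poly(A)-binding proteins the elements are runs of A, in capitals below. NAB2 (YGL122C, chrVII:278839-280559, minus strand) has a run of 26 A that begins 140 bases after its stop codon and lies beyond the annotated transcript end. Only 0.112% of 4449 coding transcripts have a run as long within 300 bases after the stop codon. PAB1 (YER165W, chrV:510225-512265, plus strand) has 25 A in 30 bases of its leader, 14 bases before the start codon, a content reached within 150 bases before the start codon by 0.764% of the same transcripts. No SNP with DNA counts fell within either stretch.
NAB2 run of A, chrVII:278778-278807: ttAAAAAAAAAAAAAAAAAAAAAAAAAAgt
PAB1 leader, chrV:510329-510358: AAAAAAAAAAAtccAAAAAAAActAAAAAA

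For the termination factors the letters bound by Nrd1 (GTAA or GTAG in DNA letters) and by Nab3 (TCTT) were counted on the sense strand in the first 400 bases of the transcript, overlaps included. NRD1 (YNL251C, chrXIV:172455-174599, minus strand) had 4 and HRP1 (YOL123W, chrXV:87466-89554, plus strand) had 3, against a median of 4 over the 4449 transcripts, and 64.2% and 82.4% of these transcripts had as many or more. Counts of these letters therefore did not set either gene apart. Each gene has 1 SNP before its coding sequence, capitalised here, and that of HRP1 is 2 bases before the start codon. The S96 base is shown, and the SK1 base was not used here.
NRD1 leader SNP, chrXIV:174371-174395: acattttttctaGtacttttctcca
HRP1 leader SNP, chrXV:87830-87854: aagttaaataagCaatgagctctga

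SNPs also limit how far each allele can be told apart, since only pairs that cover a difference between the strains were counted. YRA1 and NRD1 have 5 SNPs with DNA counts each within the transcript, HRP1 has 7, PAB1 has 9, DBP2 has 12 and NAB2 has 14. In PAB1 all 9 are coding and in NAB2 13 of 14 are. In DBP2 7 of the 12 and in YRA1 1 of the 5 lie in the intron, and these sites are absent from spliced RNA. How far they weigh in the ratios was not tested. At the coding NAB2 site chrVII:280174 the DNA of hybrids A and B gave 56 and 32 S96 reads and 0 SK1 reads in either. That site may therefore not separate the alleles. HRP1 has 13 further SNPs in the 500 bases upstream of its transcript, NRD1 has 4, PAB1 8, NAB2 3, YRA1 2 and DBP2 none. Counts cover the whole transcript, with 50 bases added at each end by the authors, so that spliced and unspliced RNA of YRA1 and DBP2, or full-length and prematurely ended RNA of NRD1 and HRP1, cannot be told apart here.

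All 6 genes were expressed above the median coding transcript, which had 1784 normalised read pairs per kb of transcript with both alleles summed. PAB1 was the highest with a mean of 39406 per kb over the 4 libraries, higher than 96.8% of the 5059 coding transcripts. YRA1 followed with 9700 per kb, HRP1 with 6926, DBP2 with 5212, NAB2 with 4361 and NRD1 with 3170, the lowest of them, at the 65.4th percentile. PAB1 stood above the others in each of the 4 libraries. Over the 4 libraries the per kb ranges of HRP1 and DBP2, and of DBP2 and NAB2, overlapped, and the other neighbours in this order did not.

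The termination factor NRD1 showed the largest SK1 excess of the 6 genes. Hybrid A had 4268 SK1 and 2494 S96 read pairs and hybrid B had 4815 and 2879, that is, 63.1% and 62.6% from SK1. Spore pool A had 4195 SK1 and 2492 S96 pairs and spore pool B had 3373 and 2454. In genomic DNA of spore pool A the SK1 allele made up 41.4% of 20413 reads over 149 SNPs within 14000 bp of the gene (95% exact binomial interval 40.7 to 42.1), and after smoothing along the chromosome and correction for mapping bias 43.1%, so that fewer SK1 pairs would be seen in the pools even from equal alleles. Corrected for this, the log2 SK1 to S96 ratio was 0.78 and 0.74 in the hybrids and 1.15 and 0.86 in the pools, and both pools lay above both hybrids.

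In the hybrids the NRD1 alleles differed by a log2 ratio of 0.76 (SE 0.17, 2 hybrid libraries, adjusted p = 0.00724 from edgeR's quasi-likelihood fit of all 4 libraries, adjusted by Benjamini-Hochberg for 6705 transcripts), a 1.69-fold excess of SK1 RNA. A ratio was called when its adjusted p was below 0.2 and its fold greater than 1.5, which held for NRD1 and for 11.6% of all transcripts. The ratio in the pools was 1.00 (SE 0.17, adjusted p = 0.000752), also called, where 10.2% of transcripts were. The local trans effect, which is the pool ratio minus the hybrid ratio, was 0.25 (SE 0.23, 95% interval -0.25 to 0.74, adjusted p = 0.955) and was not called. The pool interval, 0.65 to 1.36, did not include an equal ratio, so the SK1 excess of the hybrids was still present in haploid cells.

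NRD1 was also the gene on which lane 8 weighed most. In spore pool A lane 6 held 528 SK1 and 563 S96 pairs and lane 7 held 467 and 546, whereas lane 8 held 3200 and 1383. Corrected for allele frequency these are log2 ratios of 0.31, 0.17 and 1.61. In the other 3 libraries lane 8 was higher as well, by smaller margins, such as 0.93 against 0.36 and 0.46 in hybrid B. With lane 8 left out, an alternative chosen after seeing the data, the hybrid ratio of NRD1 was 0.50 (adjusted p = 0.270), the pool ratio 0.45 (adjusted p = 0.340) and the local trans effect -0.05 (adjusted p = 0.989), so that both calls were lost and the sign of the local trans effect turned. In lane 8 alone the hybrid ratio was 0.90 (adjusted p = 0.0253). DNA of spore pool B was sparse here, with 13 SNPs and an SK1 share of 52.3% of 798 reads (48.7 to 55.8) before smoothing and 28.2% after it, and with each pool's own frequency the pool ratio was 1.41 (adjusted p = 0.269), no longer called, and the local trans effect 0.66 (adjusted p = 0.922). That setting and limma also ended the hybrid call (adjusted p = 0.562 and 0.223), and limma the pool call (adjusted p = 0.209).

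**Figure D1:**
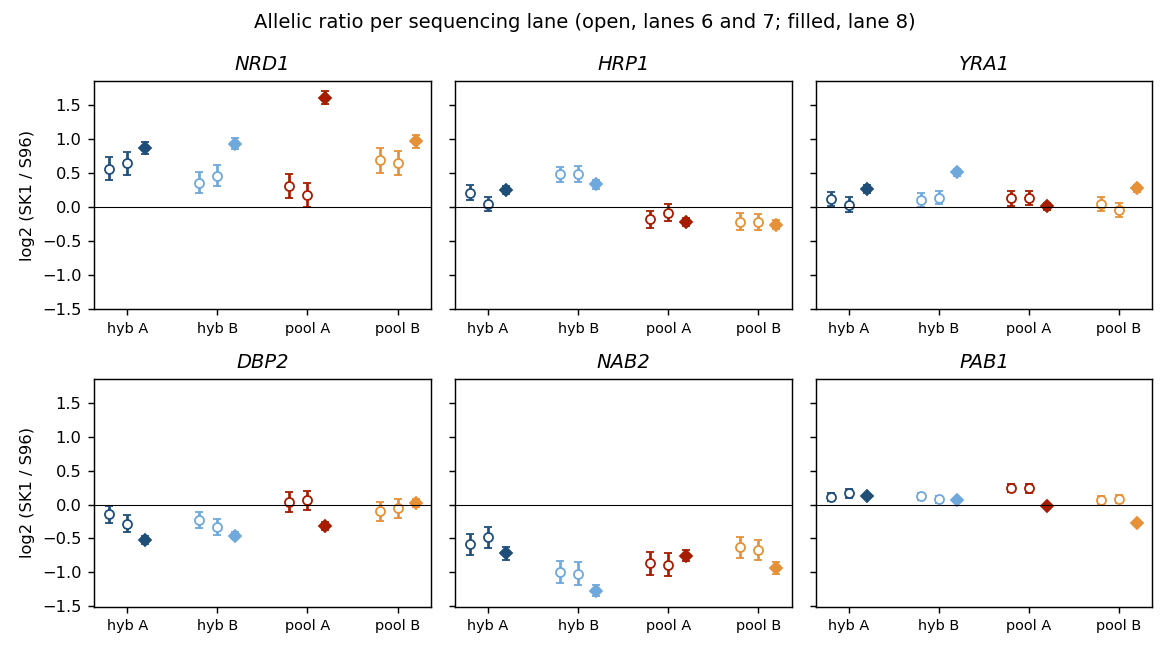
Log2 SK1 to S96 ratio of each gene in each library and sequencing lane, pools corrected for allele frequency; open circles are lanes 6 and 7, filled diamonds lane 8, and bars are 95% intervals for counting error. Lanes 6 and 7 lie close together in every panel, while lane 8 departs most for NRD1 in spore pool A, where it reached 1.61 against 0.31 and 0.17.

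HRP1, the cleavage factor subunit, was the gene whose allelic ratio differed most between hybrids and pools, and the one that depended most on the DNA correction. Hybrid A had 8281 SK1 and 7237 S96 pairs and hybrid B had 7663 and 5868, a small SK1 excess in both. In the pools SK1 pairs outnumbered S96 pairs by far, 10125 to 4372 in spore pool A and 9624 to 4303 in spore pool B. The gene lies on the left arm of chromosome XV in a stretch where SK1 alleles are enriched in the pools: 70.4% of 40822 DNA reads of spore pool A over 254 SNPs within 14000 bp were SK1 (interval 70.0 to 70.9), and 77.9% of 589 reads of spore pool B (74.4 to 81.2).

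After the correction, which used an SK1 frequency of 72.6% in both pools, the log2 ratio of HRP1 was 0.19 and 0.39 in the hybrids and -0.20 and -0.25 in the pools. The hybrids thus leaned to SK1 and the pools to S96, with no overlap. The hybrid ratio was 0.29 (SE 0.12, adjusted p = 0.185) and the pool ratio -0.22 (SE 0.12, adjusted p = 0.352), and neither was called. The local trans effect was -0.51 (SE 0.17, 95% interval -0.87 to -0.15), with an unadjusted p of 0.00905 in edgeR's fit and an adjusted p of 0.644, and did not pass the test. It ranked 92nd by p among the 6705 transcripts, of which 5.76% had an unadjusted p under 0.05.

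HRP1 kept the negative sign when lane 8 was left out (-0.48), in lane 8 alone (-0.53) and with the DNA of the pool in question used for each (-0.57), in all 3 cases with an adjusted p above 0.8. With no correction for allele frequency the sign turned, to 0.90 (adjusted p = 0.00937), and the gene was called. The effect of HRP1 is therefore the small remainder of a large raw shift, 0.29 to 1.19 in the mean uncorrected log2 ratio, and of a frequency ratio of 1.41 on the same scale. Over the 7 SNPs inside the transcript 71.7% of 1350 reads of spore pool A were SK1, but in the hybrids these SNPs gave 43.2% of 555 and 43.6% of 484 reads, below the 47.9% and 49.9% of the wider window. DNA counts at the gene itself thus differed from those of the window in the hybrids, and the part of this in the result was not tested. The neighbour SMF1, on the opposite strand, ends 4 bp from HRP1 and had 3754 to 5870 pairs.

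**Figure D2:**
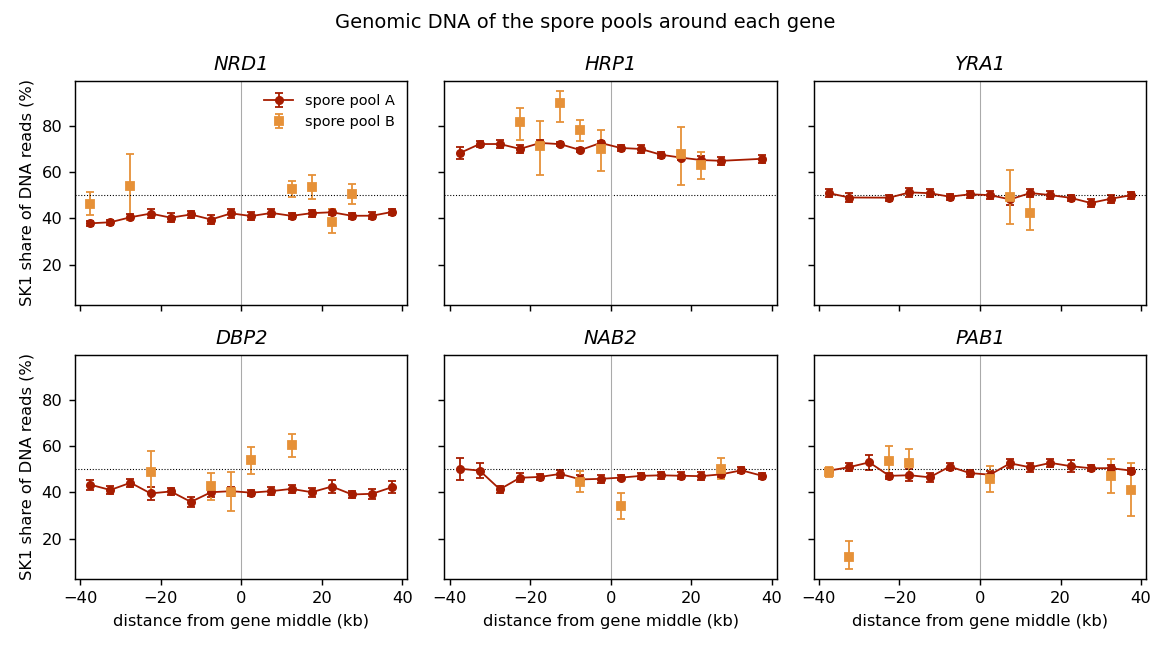
SK1 share of genomic DNA reads in 5000 bp bins within 40 kb of the middle of each gene in spore pool A (line) and spore pool B (squares), with 95% exact binomial intervals; the dotted line is 50%. HRP1 is the only one of the 6 genes in SK1-enriched surroundings, near 70% in spore pool A, and NRD1 and DBP2 lie near 40%; bins of spore pool B are sparse and scatter widely.

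The export adaptor YRA1 differed little between alleles and between groups. Its pairs numbered 7538 SK1 and 6617 S96 in hybrid A, 9239 and 7236 in hybrid B, 9365 and 8443 in spore pool A and 11059 and 9019 in spore pool B, with SK1 ahead in all 4 libraries. The SK1 DNA share of spore pool A around the gene was 50.0% of 21386 reads, so that the correction was slight. DNA of spore pool B gave 46.6% of 335 reads over 8 SNPs and, from these sparse counts, 63.3% after smoothing and correction. Corrected log2 ratios were 0.19 and 0.35 in the hybrids and 0.05 and 0.19 in the pools, and the groups overlapped. The hybrid ratio was 0.27 (SE 0.12, adjusted p = 0.195), which passed the false discovery rate but not the fold, and the local trans effect was -0.15 (SE 0.16, 95% interval -0.50 to 0.19, adjusted p = 0.959). Hybrid B lane 8 stood at 0.51 against 0.10 and 0.14 in lanes 6 and 7, and without lane 8 the hybrid ratio was 0.10 (adjusted p = 0.818) and the local trans effect -0.03 (adjusted p = 0.988). With each pool's own DNA the local trans effect was -0.49 (adjusted p = 0.922). The gene YDR381C-A, on the opposite strand, overlaps the last 69 bases of YRA1 and had 3768 to 5742 pairs. The libraries were strand-specific, but the strand setting of the counting is not given in the sources used here.

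DBP2, the helicase gene with the longest intron, had more S96 than SK1 RNA in the hybrids. Hybrid A had 6176 SK1 and 8363 S96 pairs and hybrid B 7283 and 9695, against 5115 and 8233 in spore pool A and 5554 and 7645 in spore pool B. The SK1 DNA share was 39.9% of 21506 reads in spore pool A, used as 42.2% after smoothing and correction for mapping bias. With it the log2 ratios became -0.44 and -0.41 in the hybrids and -0.23 and -0.01 in the pools. Both pools lay above both hybrids. The hybrid ratio of -0.43 (SE 0.12, adjusted p = 0.0403) passed the false discovery rate and, at 1.34-fold, not the minimum fold, and the pool ratio was -0.12 (SE 0.12, adjusted p = 0.677).

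The local trans effect of DBP2 was 0.31 (SE 0.17, 95% interval -0.06 to 0.67, adjusted p = 0.881) and was not called. It too rested on the frequency of spore pool A, for without correction it was -0.15 (adjusted p = 0.873). Spore pool B gave a different DNA share, 51.2% of 1117 reads over 22 SNPs (48.2 to 54.2), and with each pool's own DNA the effect was 0.05 (adjusted p = 0.977). Lane 8 stood below lanes 6 and 7 in hybrid A, hybrid B and spore pool A and above them in spore pool B, and without it the hybrid ratio was -0.25 (adjusted p = 0.547), the pool ratio -0.01 (adjusted p = 0.982) and the local trans effect 0.23 (adjusted p = 0.956).

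NAB2, the nuclear poly(A)-binding protein, showed the largest S96 excess of the 6 genes. Hybrid A had 2350 SK1 and 3651 S96 pairs and hybrid B had 2509 and 5700, or 39.2% and 30.6% from SK1, which is a wide spread between the hybrid replicates. The pools were closer, with 2934 and 5480 pairs in spore pool A and 2583 and 4940 in spore pool B. The SK1 DNA share around the gene was 46.7% of 25144 reads in spore pool A and 40.8% of 791 reads in spore pool B. Corrected log2 ratios were -0.64 and -1.18 in the hybrids and -0.79 and -0.82 in the pools, so that both pools fell between the hybrids.

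Both NAB2 ratios were called. In the hybrids the log2 ratio was -0.91 (SE 0.17, adjusted p = 0.00207), a 1.88-fold excess of S96 RNA, and in the pools it was -0.80 (SE 0.17, adjusted p = 0.00579). The local trans effect was 0.11 (SE 0.24, 95% interval -0.40 to 0.61, adjusted p = 0.986). Leaving out lane 8 kept the hybrid call (-0.77, adjusted p = 0.0426) and gave a local trans effect of 0.00 (adjusted p = 0.998), and leaving out hybrid B turned its sign, to -0.17 (adjusted p = 0.996). With each pool's own DNA, which is sparse for spore pool B, the local trans effect was 0.45 (adjusted p = 0.922) and both calls were lost, at a hybrid ratio of -0.91 (adjusted p = 0.562) and a pool ratio of -0.46 (adjusted p = 0.577). Limma called neither ratio (adjusted p = 0.235 in hybrids and 0.303 in pools). The pool interval of -1.16 to -0.45, from the fit with the frequency of spore pool A, did not reach an equal ratio. The upstream neighbour GPG1, on the same strand 80 bp away, had 71 to 594 pairs, few beside those of NAB2.

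PAB1, the cytoplasmic poly(A)-binding protein, was measured with the greatest depth and had nearly equal alleles. Hybrid A had 40192 SK1 and 36654 S96 pairs, hybrid B 46140 and 43939, spore pool A 43072 and 40184, and spore pool B 33472 and 36462. SK1 was ahead in 3 of the 4 libraries, and spore pool B leaned to S96. With an SK1 DNA share of 49.3% of 20719 reads in spore pool A, the corrected log2 ratios were 0.13 and 0.07 in the hybrids and 0.04 and -0.19 in the pools. Both pools lay below both hybrids, but the pools were further from each other than spore pool A was from the hybrids.

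The hybrid ratio of PAB1 was 0.10 (SE 0.07, adjusted p = 0.486), the pool ratio -0.07 (SE 0.07, adjusted p = 0.649) and the local trans effect -0.17 (SE 0.10, 95% interval -0.39 to 0.04, adjusted p = 0.885). Its standard error was the smallest of the 6 and its interval left out changes above 1.5-fold in either direction. The paper assessed buffering only in genes with a large and significant cis effect, which PAB1 lacked here. Its narrow interval is thus no measure of self-restraint. Lane 8 was the low one in both pools, at -0.02 against 0.25 and 0.24 in spore pool A and at -0.27 against 0.06 and 0.09 in spore pool B. The noncoding transcript SUT517, on the opposite strand 12 bp upstream, had 323 to 783 pairs, few beside PAB1. Without lane 8 the pool ratio was 0.16 (adjusted p = 0.480) and the local trans effect 0.04 (adjusted p = 0.988), both of the other sign.

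**Figure D3:**
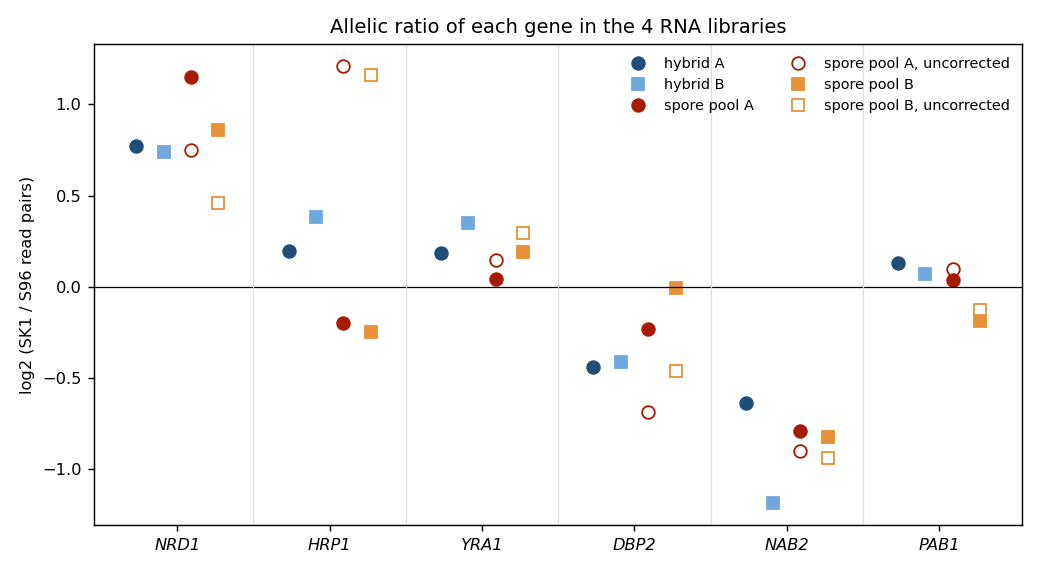
Log2 ratio of SK1 to S96 read pairs for the 6 genes in hybrids A and B and spore pools A and B; filled symbols of the pools are corrected for the DNA allele frequency and open symbols are not. The correction moves HRP1 from 1.21 and 1.16 to -0.20 and -0.25, shifts NRD1 and DBP2 upwards, and hardly moves YRA1 and PAB1.

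Set beside each other, 2 of the 6 genes had a called ratio in the hybrids (NRD1 and NAB2), where 11.6% of transcripts were called. The same 2 had a called ratio in the pools, where 10.2% were. None had a called local trans effect, where 0.164% of transcripts were called. Only NRD1 and NAB2 had the large and significant cis effect that the paper required before assessing buffering. Their local trans intervals were the widest of the 6. The lack of a call in the other genes cannot show whether they restrain themselves. Under edgeR 1 of the 6, HRP1, had an unadjusted p under 0.05 for the local trans effect, where 5.76% of transcripts had. DESeq2 without a prior and limma also called no local trans effect among the 6. Without the minimum fold, 5 of the 6 passed in the hybrids, all but PAB1, where 17.0% of transcripts passed. With lane 8 left out only NAB2 passed in this way (adjusted p = 0.0426, edgeR). With limma and with each pool's own DNA none of the 6 did, the lowest adjusted p being 0.223 and 0.562. These genes are well covered, with a median SE of the hybrid ratio of 0.12 against 0.30 over all transcripts, and their median absolute ratio was 0.36 against 0.33. The median absolute local trans effect was 0.21 for the 6 genes and 0.31 for all transcripts, with median SEs of 0.17 and 0.42.

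The pools and hybrids did not overlap in corrected ratio for 4 of the 6 genes, where 35.0% of all transcripts did not. Of these, DBP2 and NRD1 were higher in the pools (17.4% of transcripts) and HRP1 and PAB1 lower (17.6%). These values sum all lanes. For NRD1 lanes 6 and 7 gave 0.31 and 0.17 in spore pool A and 0.68 and 0.65 in B. The hybrids lay between, at 0.36 to 0.64. For PAB1 these lanes gave 0.25 and 0.24 in spore pool A and 0.06 and 0.09 in B, beside 0.08 to 0.16 in the hybrids. Without lane 8 NRD1 and PAB1 thus overlapped, and HRP1 and DBP2 did not. The share of all transcripts was not counted without that lane. The local trans effect and the hybrid ratio use the same hybrid libraries, so that their signs are not independent, and the values are given side by side here: 0.25 beside 0.76 for NRD1, -0.51 beside 0.29 for HRP1, -0.15 beside 0.27 for YRA1, 0.31 beside -0.43 for DBP2, 0.11 beside -0.91 for NAB2 and -0.17 beside 0.10 for PAB1. With 2 libraries in each group the 95% interval of the local trans effect extended by 0.21 to each side of the estimate for PAB1 and by up to 0.51, for NAB2. These intervals are not adjusted for the number of transcripts and take the allele frequency as known. A call also needed a fold greater than 1.5, so that effects larger than these distances could go uncalled, as that of HRP1 did.

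**Figure D4:**
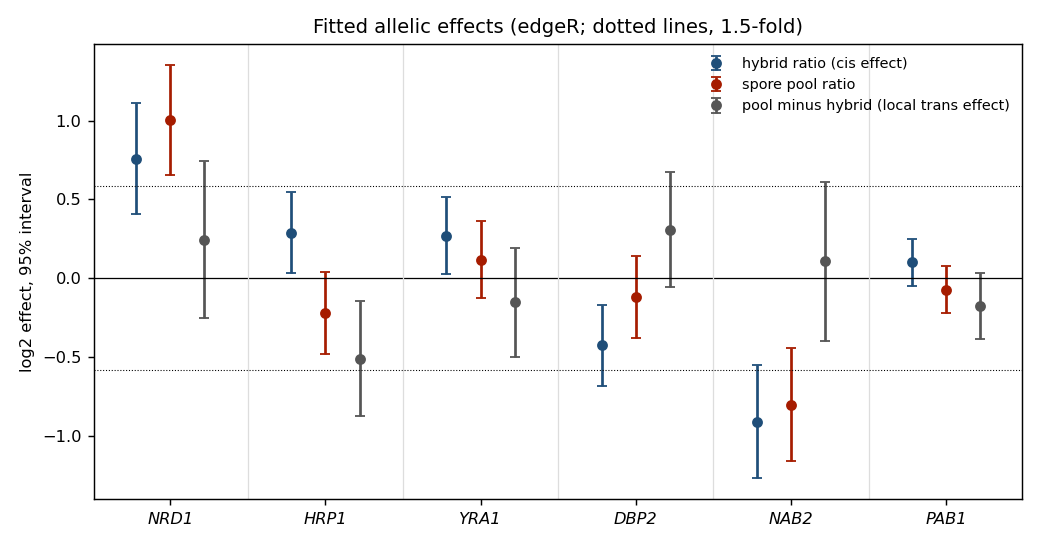
Fitted log2 effects of each gene with 95% intervals from edgeR: the hybrid ratio, the spore pool ratio and their difference, the local trans effect; dotted lines mark a 1.5-fold ratio. With the allele frequency taken as known, the intervals of NRD1 and NAB2 exclude an equal ratio in hybrids and in pools. Of the 6 local trans intervals that of HRP1 alone, -0.87 to -0.15, excludes no change.

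The summed level of both alleles was compared between haploid pools and diploid hybrids as a second view of the same genes. NRD1 had 7634 and 8140 normalised read pairs in the hybrids and 5679 and 5745 in the pools. DBP2 had 16415 and 17961 against 11336 and 13012, and PAB1 86760 and 95295 against 70705 and 68945. HRP1 had 17520 and 14315 against 12312 and 13730. In these 4 genes both pools lay below both hybrids, as they did in 18.3% of transcripts.

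YRA1, with 15981 and 17429 in the hybrids and 15124 and 19794 in the pools, and NAB2, with 6775 and 8684 against 7146 and 7417, overlapped. The log2 difference between pools and hybrids was -0.50 for DBP2 (SE 0.23, unadjusted p = 0.0499 in edgeR's fit, adjusted p = 0.615), -0.47 for NRD1 (SE 0.23, adjusted p = 0.682), -0.38 for PAB1 (SE 0.22, adjusted p = 0.751) and -0.29 for HRP1 (SE 0.23, adjusted p = 0.858). It was 0.06 for YRA1 and -0.09 for NAB2. None of the 6 was called by edgeR, DESeq2 or limma, and 1, DBP2, had an unadjusted p under 0.05, where 8.13% of transcripts had. Leaving out spore pool B, with spore pool A assumed to vary like the hybrids, DBP2 was called at -0.60 (adjusted p = 0.0190), in a fit that called 878 of 6680 transcripts against 76 of 6705 with all libraries. Leaving out lane 8 changed the difference of PAB1 to -0.22 (adjusted p = 0.953) and that of YRA1 to -0.09 (adjusted p = 0.974). Cell type, ploidy and genotype mixture change together from hybrids to pools, and their parts in these differences cannot be told apart.

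**Figure D5:**
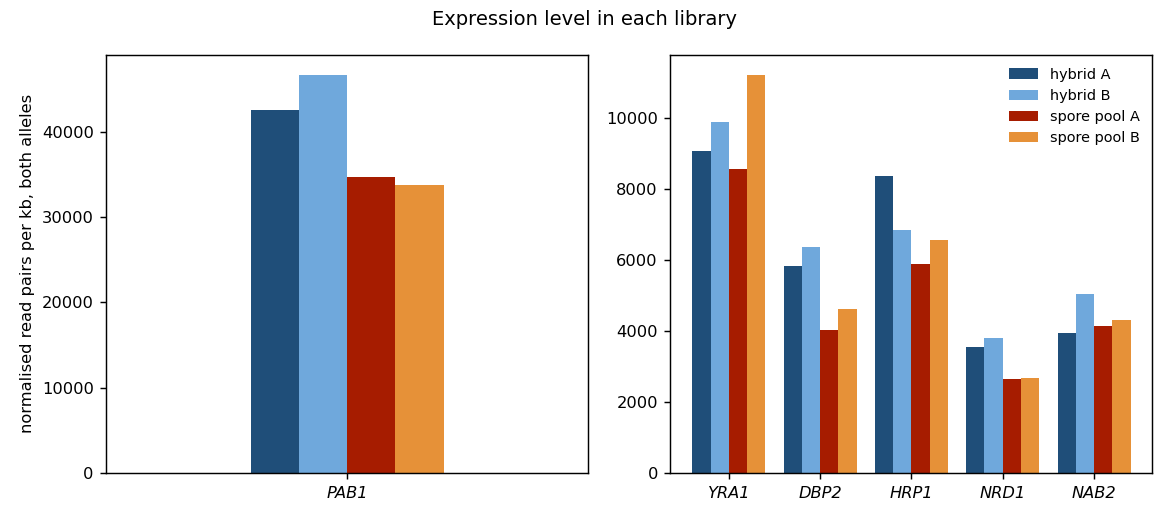
Normalised read pairs per kb of transcript, both alleles summed, in the 4 RNA libraries, with PAB1 on its own axis. The bars of both pools are below those of both hybrids for PAB1, DBP2, HRP1 and NRD1, and overlap with them for YRA1 and NAB2.

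The proteins that work with these 6 were read from 5 lists, and beside the 6 no gene of these lists had a called local trans effect or a called difference in total level by edgeR. DESeq2 called 1 local trans effect, that of THP2, and limma none, and in edgeR's fit the unadjusted p of the local trans effect was under 0.05 for 2 of the export genes, 2 of the other mRNA-binding protein genes and none of the other 3 lists. The same counts for the total level were 0 in all 5 lists with edgeR, and DESeq2 and limma called none. Of the Nrd1-Nab3-Sen1 termination genes, 8 were tested beside NRD1, and none was called in hybrids or pools, with a median local trans effect of 0.02 against a median of 0.00 over all transcripts. Of 13 further mRNA export and TREX genes, 2 were called in the hybrids, both lower from SK1, where 7.02% of transcripts were. They are THP2, a THO complex subunit, at -2.70 (SE 1.03, adjusted p = 0.164) but at 3.15 and 0.09 in the 2 pools, and GBP2, an export protein that binds poly(A) RNA, at -2.16 (SE 0.22, adjusted p = 6.17e-06). GBP2 was also called in the pools, at -3.03 (SE 0.22). Its corrected log2 ratios were -1.78 and -2.54 in the hybrids and -3.47 and -2.59 in the pools. GBP2 lies on chromosome III, where the paper places the selection for mating type. The part of the DNA correction in its pool ratio was not tested.

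Among 19 cleavage and polyadenylation genes other than HRP1 and PAB1, 3 were called lower from SK1 in the hybrids. These were the endonuclease gene YSH1 at -1.94 (adjusted p = 0.00284), the phosphatase gene SSU72 at -1.86 (adjusted p = 0.0453) and PTI1 at -0.78 (adjusted p = 0.162), and in the pools YSH1 at -2.26 and RNA15 at -0.59 were called, where 6.26% of transcripts were called in that direction. Of 25 mRNA decay and surveillance genes other than DBP2, 1 was called in the hybrids, the exosome subunit gene RRP45 at -0.91 (adjusted p = 0.0148). In the pools UPF3 of nonsense-mediated decay was called at 0.59, where 3.95% were called higher from SK1, and the exosome genes CSL4, RRP45 and RRP43 at -0.77, -0.71 and -0.70.

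Of 13 other mRNA-binding protein genes, 2 were called higher from SK1 in the hybrids, where 4.53% of transcripts were, and 1, GBP2 again, lower. CDC33, which encodes the cap-binding protein eIF4E, stood at 2.26 (SE 0.54, adjusted p = 0.0180) and PUF3, a binder of mRNAs of mitochondrial proteins, at 1.11 (SE 0.19, adjusted p = 0.000965). CDC33 had log2 ratios of 1.99 and 2.55 in the hybrids and -0.71 and 0.71 in the pools, and its local trans effect was not called. The median local trans effects of the other lists were -0.04 for export, -0.01 for cleavage, 0.05 for decay and -0.12 for the remaining binders, none of them tested as a group.

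For each gene the coding transcript with the most similar pattern over the 8 allele columns (4 libraries by 2 alleles, corrected counts) was found among 5058 others by Pearson's r on log2 counts. NRD1 was closest to PPA2 (r = 0.997), PAB1 to NOP4 (0.983), NAB2 to SCT1 (0.980), DBP2 to NOP6 (0.974), YRA1 to CKB1 (0.957) and HRP1 to PHA2 (0.939). These are descriptions over 8 columns that share 4 libraries, and r above 0.9 was reached by 85 transcripts for NAB2, 42 for PAB1, 37 for NRD1, 16 for DBP2, 12 for YRA1 and 4 for HRP1. None of the 6 closest patterns belonged to another of the 6 genes.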

How the data were processed

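RNA values were deposited as raw counts of read pairs for every transcript, allele and lane. The authors had aligned pairs to the S96 and SK1 genomes with GSNAP and run htseq-count (HTSeq 0.5.4p5), without normalization. DNA values, deposited as well, count the reads of either allele at each SNP on build R64. These files hold 5044730 and 4427895 reads for the hybrids (A and B) and 9749494 and 266380 for the pools. Their columns carry no names. The first was taken as S96, following the mapping bias given in the methods, and over 6966 transcripts the pool RNA ratio rose with the share of the second column (Spearman's rho 0.248 and 0.247, a description across transcripts). The annotation names no build, but each of the 6 transcripts contains its R64 coding sequence. No column was left unmapped. Pairs on no transcript, 26.8% to 36.4%, were left out.

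Lanes were summed here. Offsets held TMM size factors of the summed alleles (edgeR 4.0.16, R 4.3.3) and allele frequencies, 0.5 in hybrids and, in both pools, the spore pool A DNA frequency smoothed with locfit 1.5.9.12 (window 28000 bp, SNPs with 10 reads or more) less the hybrids' mean mapping bias of -1.86 percentage points. SK1 transcript lengths were not used. Transcripts with no read of an allele, or with a mean corrected count below 10, were removed. A single edgeR quasi-likelihood model, with a term per library, a cis and a local trans effect, was fitted to 6705 transcripts and checked on simulated data. Calls required an adjusted p (Benjamini-Hochberg) below 0.2 and a fold greater than 1.5. Alternatives were DESeq2 1.42.0, limma 3.58.1 (pseudocount 1), other size factors, filters, thresholds, frequencies and replicate terms, each library left out and, added after seeing the data, lane 8 left out or alone. All 6 genes are named, with up to 3 called genes per list, direction and comparison, the most similar transcript, and neighbours within 100 bp. Members and lists were chosen with earlier results of these data known. The study calls its cultures biological replicates. Intervals of shares are exact binomial (95%) and leave out PCR duplication and the spread between cultures. Figures used Python 3.11.15 and matplotlib 3.10.9.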

Additional observations from a re-analysis of the deposited data

Results flagged for a closer look

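HRP1 was singled out because both hybrids leaned to SK1 (0.19 and 0.39 in log2 ratio) and both pools to S96 (-0.20 and -0.25). The difference, a local trans effect of -0.51, was tested in the fit over all transcripts and did not pass (adjusted p = 0.644, edgeR). The SK1 share of genomic DNA at this gene was 70.4% in spore pool A, a shift toward SK1 and thus opposite to this difference. The mean uncorrected log2 ratio moved with the share, from 0.29 in the hybrids to 1.19 in the pools. The part of the share in the result was not tested beyond the corrections given above.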

How the results depend on the processing

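Among the 6 genes a local trans effect was called under 1 alternative, no correction for allele frequency (1 gene, HRP1, at 0.90, with 171 transcripts called against 11). That setting also turned the local trans effects of DBP2 (-0.149), NRD1 (-0.153) and NAB2 (-0.0081) and the pool ratio of HRP1 (1.19). With lane 8 left out, the local trans effects of NRD1 (-0.052) and PAB1 (0.040), the pool ratio of PAB1 (0.159) and the total of YRA1 (-0.094) turned, and 1 gene each was called in hybrids and pools. In lane 8 alone 446 transcripts were called in pools and 40 in total. With each pool's own DNA none of the 6 was called in hybrids or pools (0 and 0), YRA1 turned in pools (-0.22), the local trans effects of NRD1, NAB2 and YRA1 grew to 0.66, 0.45 and -0.49, and 74, 0 and 48 transcripts were called for hybrids, local trans and pools, against 775, 11 and 685. Unsubtracted mapping bias gave PAB1 a pool ratio of 0.034 and 17 local trans calls. The narrower smoothing window also gave 17, and no filter on counts gave 7. DESeq2 called 56 local trans effects and 261 totals. Limma called 359, 0 and 172 transcripts and none of the 6 genes (0 in hybrids, 0 in pools), with adjusted p of 0.223 and 0.235 for NRD1 and NAB2 in hybrids. Without a minimum fold 5 of the 6 and, in pools, 1059 transcripts passed. NAB2 turned in total with library totals alone (0.0058). DNA shares within 5000 bp of HRP1 and PAB1 in spore pool A were 71.3% and 48.5%. Leaving out 1 library at a time gave 9 to 47 local trans calls, 412 to 812 pool calls, 41 to 878 total calls (780 without spore pool A, 878 without B) and 0 to 1 of the 6 genes called in total. Local trans effects then ranged from -0.168 to 0.38 for NAB2, 0.099 to 0.39 for NRD1, 0.19 to 0.42 for DBP2, -0.235 to -0.071 for YRA1, -0.29 to -0.063 for PAB1 and -0.61 to -0.41 for HRP1, pool ratios from -0.185 to 0.039 for PAB1, and totals from -0.144 to 0.25 for YRA1 and from -0.25 to 0.112 for NAB2. The cause of these changes was not tested, beyond the smaller number of libraries.

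The shared letters A and B were not used to pair the samples in the main fit. The deviations of A and B libraries correlated at -0.0055 for the allelic ratio and 0.0029 for the total over 5508 transcripts. No deviation shared by letter was thus seen, but this cannot show whether the cultures were paired by design. The fit with no replicate block, a ploidy term in place of library terms, called 342, 2 and 253 transcripts for hybrids, local trans and pools. The replicate block of letters called 53 local trans effects and 115 totals, with HRP1 at an adjusted p of 0.292, and changed no call of the 6 genes. With 2 libraries in each group the median SE of the local trans effect of these well-covered genes was 0.17. The parts of replicate spread, the lane difference and counting error in it were not tested. Error in the allele frequency is left out of every SE, interval and p of pool ratios and local trans effects, because the frequency was entered as known. Smoothed and corrected SK1 frequencies in spore pools A and B were 43.1% and 30.0% at NRD1, 48.0% and 36.5% at NAB2 and 51.8% and 63.3% at YRA1. They were 42.2% and 51.2% at DBP2, 72.6% and 74.2% at HRP1 and 51.1% and 53.1% at PAB1.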
